A study of Bos taurus with 6 samples.

Results

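The genes described here repair DNA or signal its damage, and they were read in bovine cumulus cells, the somatic cells around the oocyte. The list of 46 genes was set by name and covers excision repair, mismatch repair, recombination, crosslink repair, end joining and the damage checkpoint. Of these, 29 have a probe set whose single gene symbol names them, among 9155 genes named on the array, and they are read by 43 probe sets. The 17 genes without such a probe set, not analysed here, are BRCA2, BARD1, RAD51C, RAD54L, XRCC2, MSH3, PMS2, FANCA, FANCD2, PARP2, ATM, ATR, CHEK2, XPA, OGG1, GADD45G and MGMT. A gene with several probe sets was read from the one with the highest mean over all arrays.

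The arrays fall into 2 groups of 3. The large-follicle group holds cumulus cells of complexes from follicles of at least 8 mm, which the submitters call competent, and the small-follicle group those from follicles of 1 to 3 mm, called incompetent. Both groups come from slaughterhouse ovaries of Bos indicus x Bos taurus crossbred cows, of unstated age, and both were limited to complexes with an even, granulated cytoplasm and several compact layers of cumulus cells. Cells were stripped by pipetting and pooled before RNA extraction, without treatment or culture being named. The labels number the pools as biological replicates but do not say how many cows each pool drew on. The p-values therefore reflect variation among pools. In such bulk RNA, fewer cells of a kind and less transcript per cell cannot be told apart.

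DNA is repaired by several routes that divide the work by kind of damage. Base excision repair removes single altered bases, nucleotide excision repair cuts out distorting lesions, mismatch repair corrects copying errors, and double-strand breaks are closed by recombination with the sister copy or by direct end joining. The Fanconi anaemia proteins unhook crosslinks between strands at stalled replication forks, and checkpoint kinases hold the cell cycle while repair goes on. Recombination and crosslink repair belong mainly to the S and G2 phases, and E2F transcription factors drive several of these genes together with the replication genes. Cumulus cells are granulosa cells, which divide as the follicle grows, and they nourish and signal to the oocyte through fine projections.

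Signals are log2 values, so a difference of 1 is a 2-fold change, and every difference is given as large minus small follicles. Array medians ranged from 5.64 to 5.68. The limma test called 12.9% of 24016 probe sets at a Benjamini-Hochberg adjusted p below 0.05. The 3'-minus-5' index, a sign of RNA quality taken from 6 control transcripts, averaged 1.98 ± 0.19 in the large-follicle and 2.46 ± 0.27 in the small-follicle arrays (SD, n = 3 each; exact permutation test, 2-sided, p = 0.10, the smallest possible). The mean of 10 granulosa and cumulus markers was high in all arrays, at 10.58 to 10.74 in large and 9.99 to 10.16 in small follicles. FOXL2 among them was dim, with a mean of 4.73. Of the 10, 6 were called higher (against 7.08% of all genes), the most CYP19A1 by 2.14. GATM was called lower, by -1.20, against 8.30% of all genes called lower. The mean of 11 leukocyte markers was 4.21 to 5.35 against 3.90 to 4.63. All 11 were higher in sign, and 2 were called higher (18.2%, against 7.08% of all genes). PTPRC, their defining surface protein, was among the dimmest and read 3.28 to 3.83. The brightest on average, LAPTM5, was uneven, at 7.01, 5.20 and 4.78 in large-follicle replicates 1 to 3 and 4.70, 4.04 and 6.02 in small-follicle replicates 1 to 3. The means of 5 theca markers (6.15 to 6.60 against 6.05 to 6.30), 6 endothelial markers (4.02 to 4.21 against 3.89 to 4.14), 6 oocyte markers (4.06 to 4.13 against 3.92 to 4.22) and 5 stromal markers (6.31 to 7.19 against 6.09 to 7.42) overlapped between groups. Single markers among them were called lower, namely NR2F2 of the theca list by -0.76 (limma adjusted p = 0.00468, and -0.76 by a second probe set) and TEK of the endothelial list by -0.57 (limma adjusted p = 0.00691). These are 20.0% and 16.7% of their lists, against 8.30% of all genes called lower. The other 4 theca and the other 5 endothelial markers were positive in sign, and none of them was called. No stromal marker was called, and 4 of the 5 were negative in sign, down to -1.04 for COL3A1. PDGFRA was positive at 1.37 without overlap between groups (limma adjusted p = 0.0683), with 0.07 and -0.06 by its dimmer probe sets. The part of these cell types in the results was not tested, apart from the leukocyte covariate below.

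Among the 29 measured repair and checkpoint genes, 7 were lower in large follicles, 1 was higher and 21 did not pass. The genes that fell were CHEK1, FANCI, UNG, FANCL, TDG, LIG4 and PARP1, and the gene that rose was GADD45A. The 7 lower genes are 24.1% of those measured, against 8.30% of all 9155 genes, and the single higher gene compares with 7.08% called higher. In both directions 27.6% were called, against 15.4% of all genes. A refit kept only probe sets with a mean at or above the median and adjusted over those alone. There the background for lower calls was 13.9% of 6372 genes, with the same 7 called of the 27 repair genes that pass that limit. The sign was negative in 22 of 29 (75.9%), against 48.5% of all genes, and the median difference was -0.10, against 0.01 over all genes. The groups did not overlap in 13 of the 29, against 36.5% of all genes. The median signal of the repair genes was 8.44, against 7.33 over all genes. The refit of brighter probe sets called a larger share of genes lower, with the adjustment over fewer probe sets. These shares describe the list and test nothing.

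**Figure D1:**
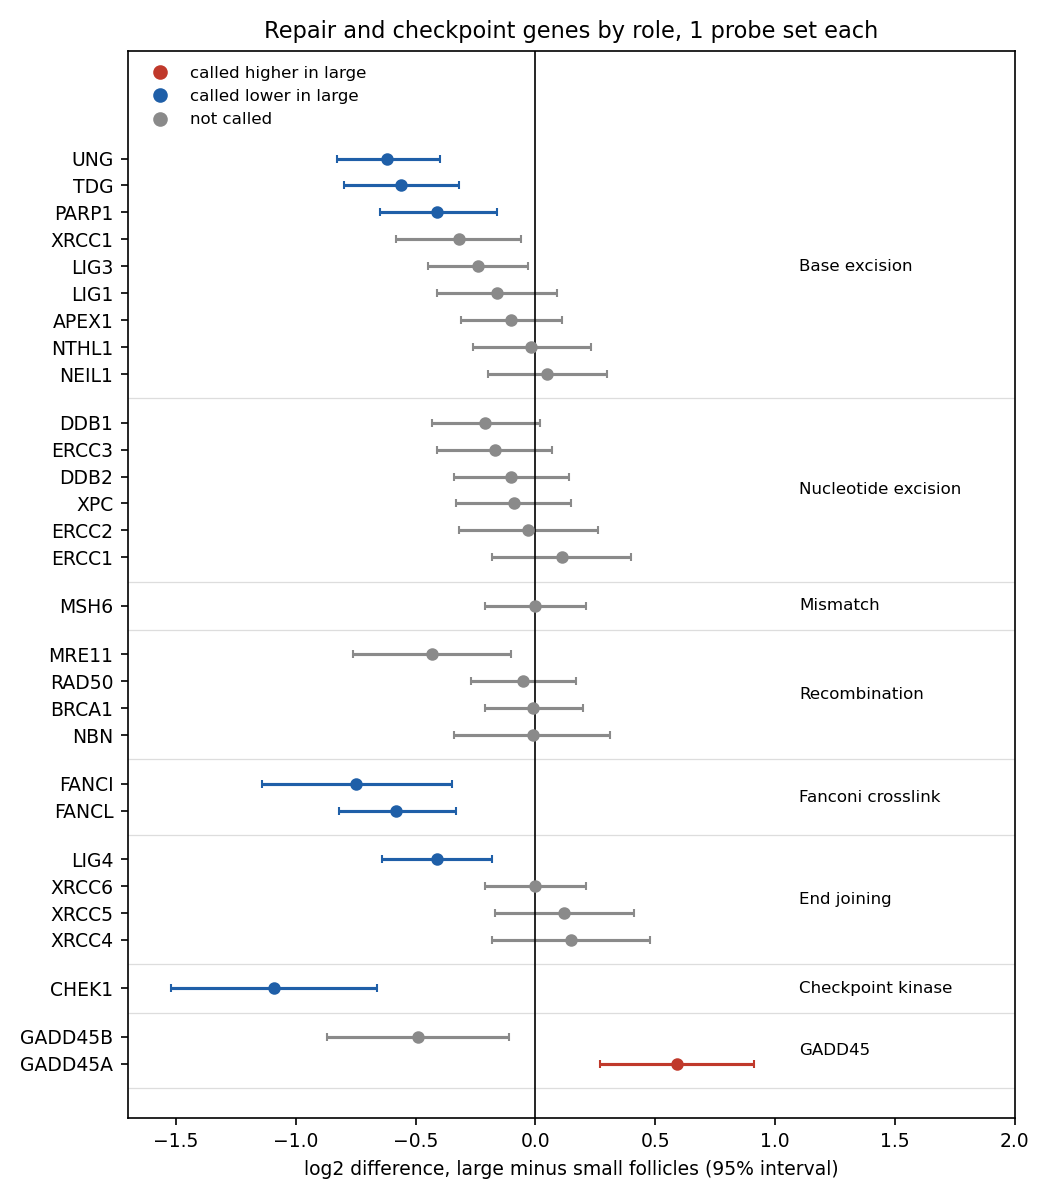
Log2 difference (large minus small follicles) of the 29 measured repair and checkpoint genes with its 95% interval, from the limma fit on 3 arrays per group, ordered by role. The 7 genes called lower lie between -1.09 (CHEK1) and -0.41 (PARP1 and LIG4), GADD45A is the gene called higher at 0.59, and the 6 nucleotide excision genes all lie between -0.21 and 0.11.

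Base excision repair begins with a glycosylase that cuts a damaged base from its sugar. UNG, which removes uracil from DNA, read 9.65, 9.81 and 9.75 in large-follicle replicates 1 to 3 and 10.35, 10.41 and 10.30 in small-follicle replicates 1 to 3. Every small-follicle array lay above every large-follicle array, and the SD was 0.08 in large and 0.06 in small follicles (n = 3 each). UNG fell by 0.62 on the log2 scale (SE 0.09, limma Benjamini-Hochberg adjusted p = 0.00540), or 1.53-fold. TDG, which removes thymine or uracil paired with guanine and also acts in active demethylation, read 8.25, 8.23 and 8.21 against 8.63, 8.81 and 8.93. Its large-follicle values were nearly identical and all were below the small-follicle ones. TDG fell by 0.56 (SE 0.10, limma adjusted p = 0.0121). Both calls held when any single array was left out, with differences of -0.65 to -0.57 for UNG and -0.64 to -0.49 for TDG.

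NTHL1 and NEIL1, glycosylases that act on oxidised bases, gave differences of -0.02 (95% interval -0.26 to 0.23) and 0.05 (-0.20 to 0.30). Their intervals exclude a fall of the size seen for UNG. APEX1, the endonuclease that cuts at the empty sugar left by a glycosylase, read -0.10 (-0.31 to 0.11). Further glycosylases outside the list were SMUG1, which also removes uracil, at 0.09 (-0.14 to 0.32), and NEIL2, for oxidised bases, at -0.11 (-0.44 to 0.22), neither of which passed. MUTYH, which removes adenine paired with oxidised guanine, was called lower at its brighter probe set and is described with the other repair genes. SMUG1 and NEIL2 were picked after their values were seen.

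PARP1, the enzyme that senses nicks and marks them with poly(ADP-ribose), read 9.85, 9.81 and 9.96 against 10.42, 10.27 and 10.15. The groups were separate, and their nearest arrays were both numbered 3. PARP1 fell by 0.41 (SE 0.11, limma adjusted p = 0.0400). The call was lost without large-follicle replicate 1 (-0.39), 2 (-0.38) or 3 (-0.45) and without small-follicle replicate 1 (-0.34) or 2 (-0.41).

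The genes that finish the repair of a nick did not pass. XRCC1, the scaffold recruited by PARP1, read -0.32 (-0.58 to -0.06, adjusted p = 0.107) by its brightest probe set and -0.15 and 0.12 by the others. LIG3, the ligase that XRCC1 carries, read -0.24 (-0.45 to -0.03, adjusted p = 0.130), with -0.17 and 0.06 by its dimmer probe sets. LIG1, the ligase of replication, read -0.16 (-0.41 to 0.09), with -0.16 and 0.02 by the others. The groups did not overlap for XRCC1 and LIG3 at the brightest probe set. In all, 3 of 9 base excision genes fell (33.3%, against 8.30% of all genes), and their median was -0.24. Of the 9, 8 were negative in sign (88.9%, against 48.5% of all genes).

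Nucleotide excision repair gave no call at the probe sets read for its 6 genes, against 15.4% of all genes called. Limma found none of the 6 at an unadjusted p below 0.05, a limit that 1332 higher and 1525 lower of 9155 genes met. A list of 6 is too short to set the pathway apart from those shares. DDB1 and DDB2 form the sensor of ultraviolet damage and read -0.21 (-0.43 to 0.02) and -0.10 (-0.34 to 0.14), the latter with 0.23 and 0.02 by its other probe sets. XPC, which recognises distorted DNA, read -0.09 (-0.33 to 0.15). ERCC3 and ERCC2, the helicases of TFIIH, read -0.17 (-0.41 to 0.07) and -0.03 (-0.32 to 0.26). ERCC2 had a low signal of 4.38 on average, and a dimmer probe set of ERCC3 read -0.34 (-0.70 to 0.02) without passing. At the brightest probe sets every interval in this group excludes a change of 0.5 in either direction.

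ERCC1, the partner of the nuclease that makes the 5' cut, differed between its probe sets. The brighter probe set read 8.51, 8.64 and 8.32 in large and 8.31, 8.25 and 8.58 in small follicles, where the groups overlap, and the difference was 0.11 (-0.18 to 0.40, adjusted p = 0.655). The dimmer probe set read 7.68, 7.94 and 7.58 against 6.82, 7.01 and 7.39, without overlap, and rose by 0.66 (0.29 to 1.03, limma adjusted p = 0.0331). Both identifiers carry the suffix for probes that match alternative transcripts of a gene. The sign was positive at both, and the size and the call depend on the probe set.

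Of the mismatch repair and direct reversal genes, only MSH6 was measured. MSH6, part of the complex that binds single mismatches, read 10.77, 10.85 and 10.91 against 10.89, 10.84 and 10.79. The groups interleaved, and the difference was 0.00 with an interval of -0.21 to 0.21.

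Recombination genes were measured mainly through the MRN complex, which binds broken ends and starts their resection. Its subunits RAD50 and NBN read -0.05 (-0.27 to 0.17) and -0.01 (-0.34 to 0.31), with -0.28 and 0.05 by their second probe sets. MRE11, the nuclease of the complex, read 7.05, 6.81 and 7.03 against 7.55, 7.54 and 7.10. The groups did not overlap, with large-follicle replicate 1 and small-follicle replicate 3 the nearest arrays, and the difference of -0.43 (-0.76 to -0.10) did not pass (adjusted p = 0.0908), though it did without small-follicle replicate 3 (-0.58, adjusted p = 0.0244). BRCA1, which promotes resection and loading of the recombinase, lay between 5.31 and 5.39 in all 6 arrays. Its difference was -0.01 (-0.21 to 0.20). None of these 4 genes was called by limma, against 15.4% of all genes. Of the 4, only MRE11 had an unadjusted p below 0.05, a limit that 1332 higher and 1525 lower of 9155 genes met. A list of 4 is too short to set recombination apart from those shares. Of 18 further recombination genes, described below, 4 fell and 1 rose.

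Of 4 listed Fanconi genes 2 were measured, and both fell, against 8.30% of all genes called lower. FANCL, the ubiquitin ligase of the Fanconi core complex, read 8.34, 8.41 and 8.15 against 8.83, 8.81 and 8.99. All large-follicle arrays were below all small-follicle arrays, and the gap was widest between the arrays numbered 3. FANCL fell by 0.58 (SE 0.11, limma adjusted p = 0.0122), a call kept when any single array was left out (-0.63 to -0.50), while its second probe set, at a low mean of 3.87, read -0.20 and did not pass. FANCI, which FANCL ubiquitinates together with its partner FANCD2, read 7.33, 7.08 and 7.72 against 8.18, 8.28 and 7.91. The groups were separate, and the arrays numbered 3 came closest. FANCI fell by 0.75 (SE 0.17, limma adjusted p = 0.0268), and it did not pass without large-follicle replicate 1 (-0.72) or 2 (-0.60) and without small-follicle replicate 1 (-0.72) or 2 (-0.67).

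End joining uses the Ku dimer to hold the ends and a ligase complex to seal them. XRCC6 and XRCC5, the Ku subunits, read 0.00 (-0.21 to 0.21) and 0.12 (-0.17 to 0.41). XRCC4, the partner of the ligase, read 0.15 (-0.18 to 0.48), with 0.38 by its dimmer probe set (adjusted p = 0.0959, groups not overlapping). LIG4, the ligase itself, read 5.72, 5.71 and 5.58 against 6.01, 6.02 and 6.20. The groups were separate, and the widest gap was between the arrays numbered 3. LIG4 fell by 0.41 (SE 0.10, limma adjusted p = 0.0333). The call was lost without any 1 of the 6 arrays: large-follicle replicate 1 (-0.43), 2 (-0.43) or 3 (-0.36), and small-follicle replicate 1 (-0.44), 2 (-0.44) or 3 (-0.34).

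CHEK1, the kinase that slows the cell cycle at stalled forks and the 1 checkpoint kinase measured, had the largest difference of the list. It read 7.97, 7.76 and 8.50 in large and 9.28, 9.24 and 8.97 in small follicles. The groups were separate, with large-follicle replicate 3 clearly above the other large-follicle arrays. CHEK1 fell by 1.09 (SE 0.19, limma adjusted p = 0.00883), or 2.12-fold. The call held when any single array was left out, with differences of -1.30 to -0.93.

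The GADD45 genes encode small stress-induced proteins that bind cell cycle and repair factors. GADD45A, a target of p53, read 7.68, 7.57 and 7.26 against 6.95, 7.07 and 6.72. The groups did not overlap, and the lowest array of each was the one numbered 3. GADD45A rose by 0.59 (SE 0.14, limma adjusted p = 0.0302). The call was lost without large-follicle replicate 1 (0.50) or 2 (0.56) and without small-follicle replicate 1 (0.61), 2 (0.67) or 3 (0.49). GADD45B, better known as a target of TGF-beta and NF-kB signalling, read 9.90, 9.51 and 10.18 against 10.38, 10.45 and 10.22. Its difference had the opposite sign, -0.49 (-0.87 to -0.11), and did not pass (adjusted p = 0.0992), though it did without large-follicle replicate 3 (-0.65, adjusted p = 0.0381). The 95% intervals of the 2 genes do not overlap, and the difference between them was not tested.

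**Figure D2:**
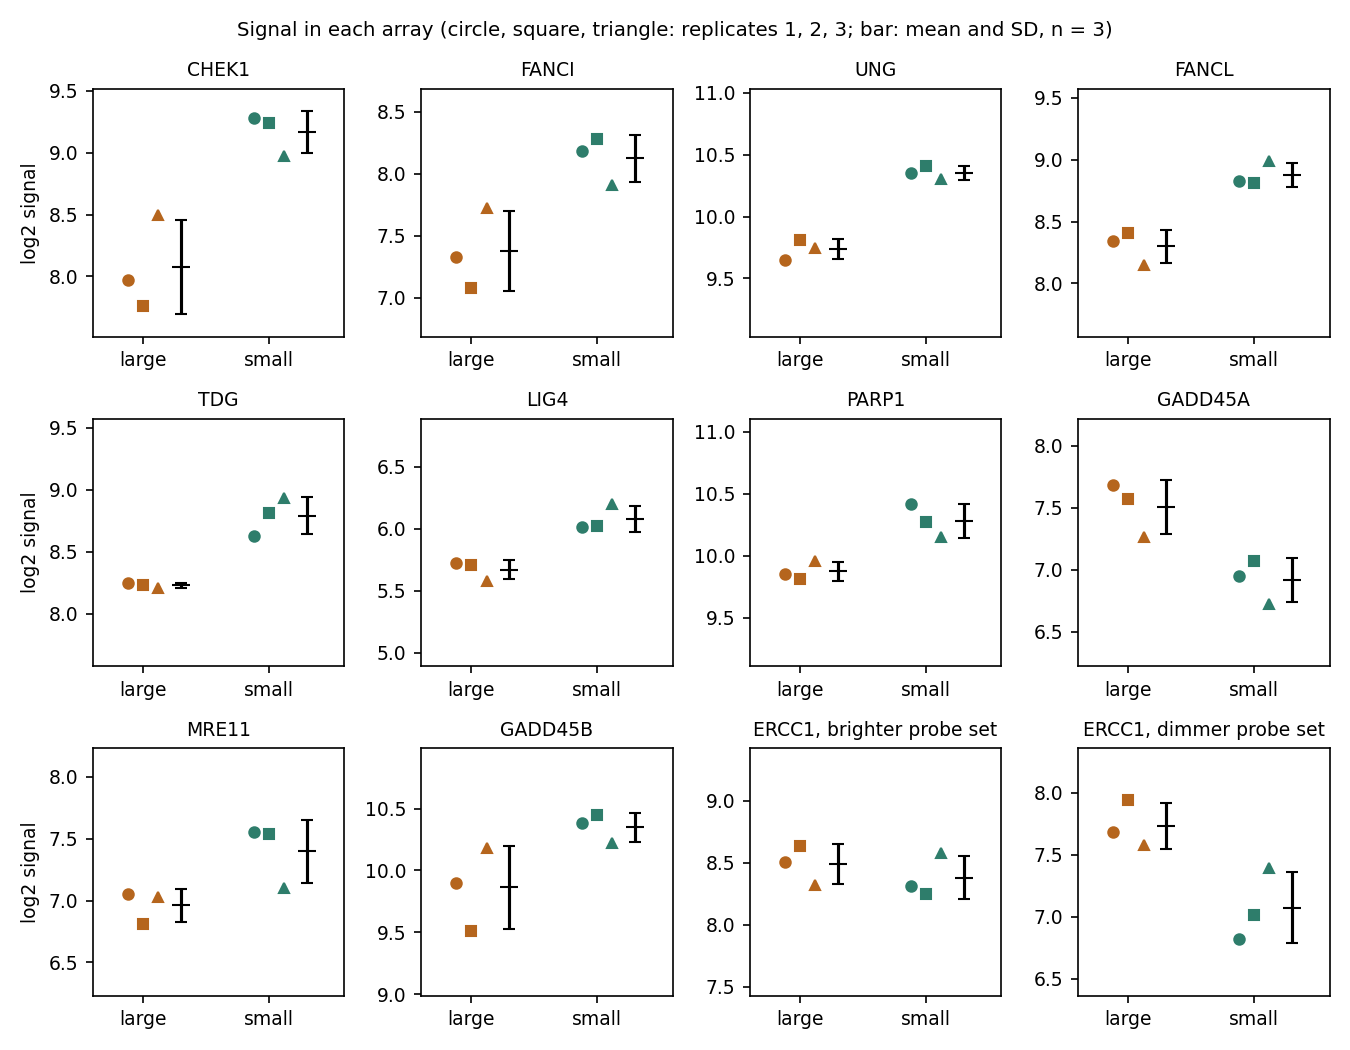
Log2 signal in each array for the 8 called genes, for MRE11 and GADD45B, and for both ERCC1 probe sets, with the mean and SD of each group (n = 3). Each panel has its own axis of the same length. Large-follicle replicate 3 (triangle) is the highest large-follicle array for CHEK1, FANCI, PARP1 and GADD45B and the lowest for FANCL, LIG4, TDG and GADD45A.

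The 21 genes that did not pass were measured with enough precision to bound their change at the probe set read for each. At these probe sets all 21 intervals lay within 1 log2 unit of no change, and 18 lay within 0.5. The widest bound was 0.87, on the lower side of GADD45B. Intervals of dimmer probe sets reached further for ERCC1 (0.29 to 1.03, called higher) and RAD50 (-0.91 to 0.35, not called). Of the 21 genes, 4 (MRE11, XRCC1, LIG3 and GADD45B) had an unadjusted limma p below 0.05, each with a negative sign. Over all 9155 genes, 1332 were higher and 1525 lower at that limit, of which 648 and 760 were called. Uncalled genes at that limit were thus common over the whole array too.

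The lower genes were then set beside genes of DNA replication and mitosis. Of 19 replication genes 7 fell (36.8%) and of 19 mitotic genes 5 fell (26.3%), against 8.30% of all genes called lower. All 19 of each list were negative in sign, against 48.5% of all genes, with list medians of -0.49 and -0.63. MCM6 and MCM7, subunits of the replicative helicase, differed by -0.72 (0.03 by a dimmer probe set of MCM6) and -0.88, and NUSAP1 and CCNA2, a spindle protein and a cyclin, by -0.82 and -0.91. The call of MCM7 was lost without small-follicle replicate 2 (-0.82), and that of CCNA2 without large-follicle replicate 1 (-0.87) or 2 (-0.81) and small-follicle replicate 1 (-0.85) or 2 (-0.80). Of 6 measured repair genes listed as E2F targets, CHEK1, FANCI and UNG fell and BRCA1, LIG1 and MSH6 did not pass. Their median was -0.39, against -0.10 for the 23 repair genes outside that list, of which 4 fell and 1 rose. That list was drawn up with the result for CHEK1, UNG and FANCI known.

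The arrays numbered 3 separate these lists. Replication genes averaged -0.35, -0.49 and 0.02 about their means over all arrays in large-follicle replicates 1 to 3, and 0.36, 0.43 and 0.03 in small-follicle replicates 1 to 3. The gap in replication genes was thus -0.01 between the arrays numbered 3 and -0.81 between the means of the others, and for mitotic genes it was 0.10 against -0.87. The 29 repair genes averaged -0.12, -0.11 and -0.06 against 0.12, 0.11 and 0.07, a gap of -0.14 between the arrays numbered 3 and -0.23 between the others.

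Single repair genes differed in how they followed this pattern. Between the arrays numbered 3 the gap shrank to -0.47 for CHEK1 (from -1.39 between the others), -0.19 for FANCI (from -1.03) and -0.19 for PARP1 (from -0.51). The uncalled MRE11 and GADD45B gave -0.07 (from -0.62) and -0.04 (from -0.71). For UNG the gaps were alike, at -0.55 and -0.65, as they were for GADD45A, at 0.54 and 0.62. FANCL, TDG and LIG4 had their wider gap between the arrays numbered 3, at -0.84, -0.72 and -0.62, against -0.45, -0.48 and -0.30. The labels do not say whether a shared number pairs the arrays, and these 2 arrays were singled out after their values were seen.

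**Figure D3:**
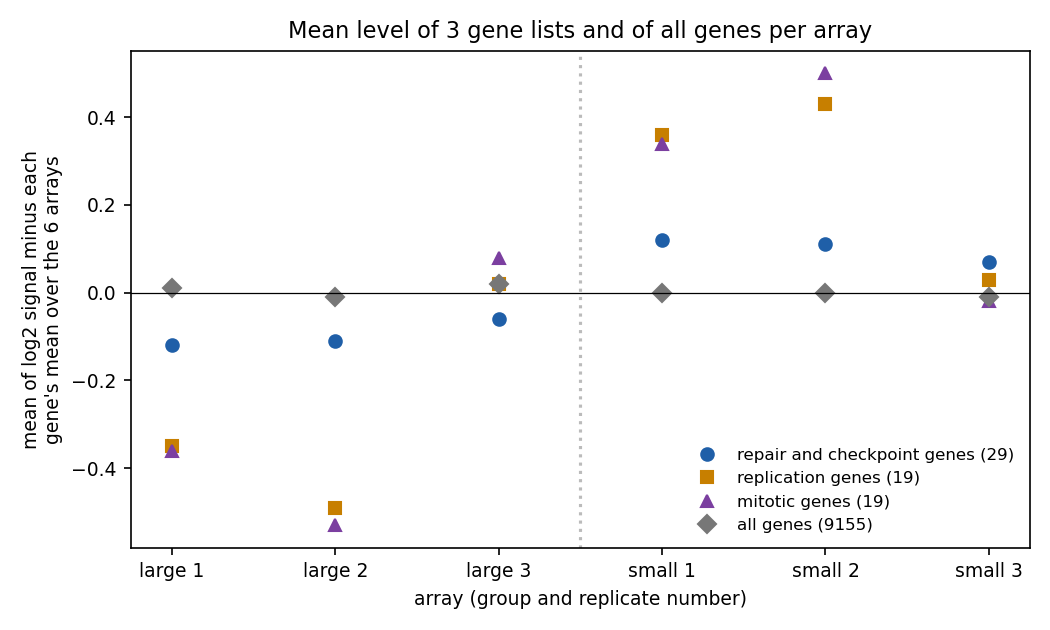
Mean over each gene list of the log2 signal minus the gene's own mean over the 6 arrays, for each array. The replication and mitotic genes are near 0 in both arrays numbered 3 and far apart in the others, while the 29 repair genes lie below 0 in all large-follicle arrays (-0.12 to -0.06) and above 0 in all small-follicle arrays (0.07 to 0.12).

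With both arrays numbered 3 left out, 5 repair genes were called lower, against 6.28% of all genes. They were CHEK1 (-1.39), FANCI, UNG (-0.65), MRE11 (-0.62) and GADD45B (-0.71), and GADD45A (0.61) stayed higher, so 3 of the 7 lower calls were kept. Other fits added a level that moves with the groups as a covariate, and the part of those levels in the results was not tested beyond these values. With the mean of the mitotic genes as a covariate, 1 of the 7 calls remained, FANCL at -0.79 (limma adjusted p = 0.0299). The differences of UNG (-0.58), TDG (-0.65), LIG4 (-0.57) and GADD45A (0.55) did not pass either, nor did the smaller ones of CHEK1 (-0.57), FANCI (-0.26) and PARP1 (-0.26). In that fit 2.02% of all genes were called lower. With the 3'-minus-5' index in the fit, 0 of the 29 were called by limma, with 6 lower and 1 higher at an unadjusted p below 0.05, and 0.492% of all genes were called lower. The differences were then -0.75 for CHEK1, -0.41 for FANCI, -0.23 for PARP1, -0.64 for UNG, -0.72 for TDG, -0.73 for FANCL, -0.54 for LIG4 and 0.78 for GADD45A. With the leukocyte markers as a covariate, 3.75% of all genes were called lower and 3.79% higher. CHEK1 (-0.89), UNG (-0.56), TDG (-0.62) and FANCL (-0.66) stayed called, and FANCI (-0.58), PARP1 (-0.34), LIG4 (-0.49) and GADD45A (0.54) did not.

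The rest of the repair pathways was read in the same fit from 71 further genes, of which 12 fell, 3 rose and 56 did not pass, with a median of -0.05. The lower calls are 16.9% of these genes, against 8.30% of all genes, and the 3 higher calls compare with 7.08% of all genes called higher. The same shares of all genes are the background for each group of repair genes below. Crosslink repair had 3 of 7 further genes lower, so that 5 of 9 measured Fanconi genes fell in all. FANCM, the translocase that anchors the core complex at damaged forks, read 5.08, 5.02 and 5.13 against 6.24, 6.20 and 6.16. The groups were far apart for their spread. FANCM fell by 1.12 (SE 0.09, limma adjusted p = 0.000906), while a second probe set at a mean of 4.24 read 0.12 and did not pass. FANCG, of the core complex, differed by -0.64, a call lost without small-follicle replicate 2 (-0.55). FAAP24, the partner of FANCM, differed by -0.47 (-0.36 by its other probe set, not passed), and it did not pass without large-follicle replicate 1 (-0.49) or 2 (-0.44) and small-follicle replicate 1 (-0.48) or 2 (-0.40).

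In recombination 4 of 18 further genes fell and 1 rose at the probe sets read. BABAM2, not called at its brighter probe set (0.22, limma adjusted p = 0.185), was called higher at its dimmer one (0.67, limma adjusted p = 0.0211). RMI2, part of the complex that dissolves crossed strands, read 7.31, 7.27 and 7.56 against 8.65, 8.46 and 8.28 and fell by 1.08 (SE 0.13, limma adjusted p = 0.00239). PALB2, the bridge between BRCA1 and BRCA2, read 6.98, 6.68 and 7.15 against 7.81, 7.88 and 7.70 and fell by 0.86 (SE 0.13, limma adjusted p = 0.00588). For both genes every small-follicle array was above every large-follicle array. XRCC3, a paralog of the recombinase, differed by -0.64 (0.17 by a dimmer probe set), a call lost without small-follicle replicate 2 (-0.58).

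In nucleotide excision repair 1 of 12 further genes fell and 1 rose. ERCC4, the nuclease that works as a dimer with ERCC1 and also cuts at crosslinks, read 6.22, 6.41 and 6.43 against 7.29, 7.24 and 7.53. The groups were separate by more than the spread within either. ERCC4 fell by 1.00 (SE 0.12, limma adjusted p = 0.00208), whereas both probe sets of ERCC1 were positive in sign. With the 3'-minus-5' index in the fit, FANCM (-1.05, adjusted p = 0.0402) and ERCC4 (-1.24, adjusted p = 0.0378) stayed called, and with the mitotic genes as a covariate FANCM (-1.05), ERCC4 (-1.09) and RMI2 (-0.82) did.

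In base excision repair 2 of 10 further genes fell. HMGB1, a chromatin protein that also binds repair intermediates, differed by -0.57 (-0.58 by its other probe set), and it did not pass without large-follicle replicate 1 (-0.61) or 2 (-0.49) and small-follicle replicate 1 (-0.48) or 2 (-0.56). HMGB1 has many near-identical copies in mammalian genomes, so its probe sets are uncertain. Of 8 further checkpoint genes 1 fell, WEE1, the kinase that restrains CDK1, at -0.67 (SE 0.11, limma adjusted p = 0.00862). The 1 further mismatch gene measured was not called.

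Called genes outside the naming rule, picked after their values were seen, were PRKDC, RPA2 and MUTYH on the lower side and RAD52, MNAT1 and UBE2B on the higher side. PRKDC, the kinase that Ku recruits, was the 1 of 5 further end joining genes to fall, at -0.67, and UBE2B, a ubiquitin-conjugating enzyme of damage tolerance, the 1 of 10 translesion genes to rise, at 0.50. The calls of RAD52 (0.36 to 0.45), MNAT1 (0.31 to 0.44) and MUTYH (-0.52 to -0.33) were lost without any 1 of the arrays. Those of RPA2 (-0.45 to -0.38) and UBE2B (0.43 to 0.61) held in the fits that left out 1 array only without small-follicle replicate 3. That of PRKDC was lost without large-follicle replicate 1 (-0.65) or 2 (-0.56) and small-follicle replicate 1 (-0.52) or 2 (-0.69). Dimmer probe sets did not pass for MUTYH (0.38), RAD52 (0.51), MNAT1 (0.42), RPA2 (0.18) and UBE2B (0.23).

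Targets of p53 beside GADD45A were read because that factor induces both repair and arrest genes. Of 13 measured, CDKN1A, TP53INP1 and BAX rose and 10 did not pass, with a median of 0.14, against 0.01 over all genes. The higher calls were 23.1% of this list, against 7.08% of all genes. Negative signs made up 30.8% of it, against 48.5% of all genes. CDKN1A, the inhibitor p21 that blocks cyclin-dependent kinases, read 9.20, 9.37 and 9.48 against 7.18, 7.38 and 7.19. The groups lay far apart for a spread of 0.14 and 0.11 (SD, n = 3 each). CDKN1A rose by 2.10 (SE 0.11, limma adjusted p = 0.000265), or 4.29-fold, and stayed called in each alternative fit, at 2.00 to 2.25. TP53INP1, a stress-induced cofactor of p53, rose by 0.73 (0.48 by its dimmer probe set, also called), and BAX, which opens the mitochondrial membrane in apoptosis, by 0.70. Both lost their calls with the 3'-minus-5' index in the fit (TP53INP1 0.53, adjusted p = 0.170, and BAX 0.57, adjusted p = 0.117) and with the mitotic genes in it (0.70, adjusted p = 0.0921, and 0.66, adjusted p = 0.0666), by limma. MDM2, PPM1D and CCNG1, which p53 also induces, read -0.03, -0.11 and 0.07 and did not pass, and MDM2 had a low mean signal of 3.55. These 3 were picked after their values were seen, and the other uncalled targets ranged from -0.12 (TP53I3) to 0.41 (PLK2). The p53 targets on the repair list, XPC and DDB2, did not pass, as given above.

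**Figure D4:**
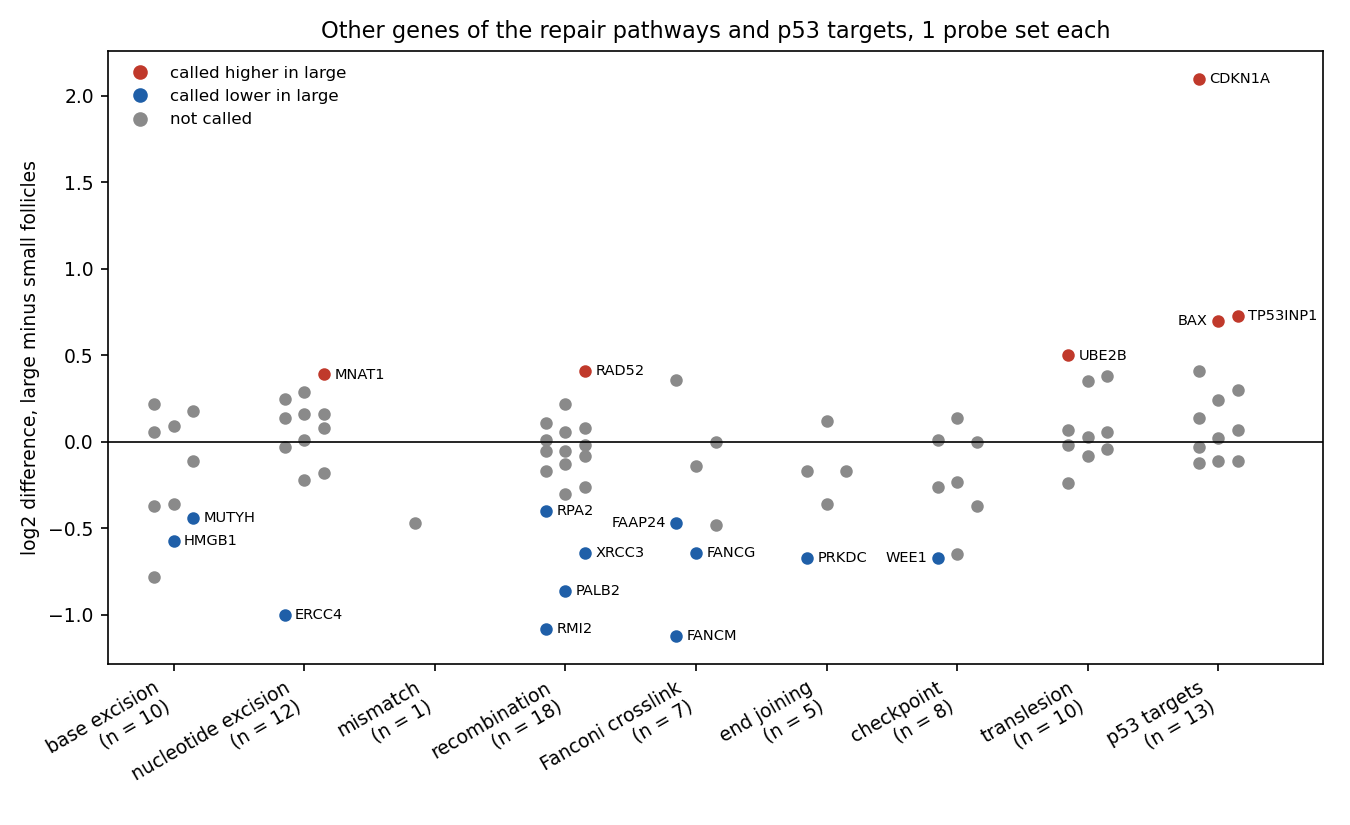
Log2 difference (large minus small follicles) of 71 further repair genes and 13 further p53 targets, 1 probe set each, with called genes named. The genes called lower reach -1.12 (FANCM), and CDKN1A at 2.10 lies apart from all others.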

How the data were processed

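The authors deposited log2 probe set signals of 6 Affymetrix bovine arrays. The submitters' processing notes name RMA as the tool, and its software and settings were not stated. RMA gives no detection call, so no filter was used. Symbols came from the platform annotation, updated through gene identifiers to RefSeq (ARS-UCD2.0, 13263 of 13292 probe sets with 1 symbol matched). The groups were compared with limma 3.58.1 under R 4.3.3 (lmFit, eBayes, constant prior, 8.28 total degrees of freedom), 2-sided, with Benjamini-Hochberg adjustment over 24016 probe sets after 112 controls were left out, at 0.05. The procedure was tested on simulated data. The number of arrays limits the precision.

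The genes, lists and tests were chosen with earlier results of these data known. Every measured repair gene is named. Other repair genes and p53 targets are named as the 12 called ones with the smallest p, at most 3 from a list, and at most 2 called replication and 2 called mitotic genes. A planned promoter motif search was not run and no sequence is shown. Alternatives left out single arrays or dim probe sets, blocked on the replicate number, rescaled the arrays (quantiles, medians, cyclic loess), weighted them, changed the prior, the probe set rule or the threshold, or took the 3'-minus-5' index as covariate. Covariates for mitotic genes and leukocyte markers, and leaving out both arrays numbered 3, were added after seeing the data. Figures used python 3.11.15 and matplotlib 3.10.9.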

Additional observations from a re-analysis of the deposited data

How the results depend on the processing

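Over 23 alternatives, none of the 8 called repair genes changed sign, and 13 of the 21 uncalled ones did in at least 1. The 7 lower calls were 4 with the replicate block (4.54% of all genes lower in that fit), 2 at a threshold of 0.01 (2.51%), 0 with the 3'-minus-5' index as covariate (0.492%, with 6 repair genes at an unadjusted p below 0.05), 1 with the mitotic genes (2.02%) and 4 with the leukocyte markers as covariate (3.75%), and 4 to 7 when 1 array was left out (3.60% to 6.87%). The lower calls were 9 with array weights (11.5% of all genes lower) and 9 at a threshold of 0.10 (12.2%). The 1 higher call was 2 with the smallest-p probe set, which adds ERCC1. It was 0 at a threshold of 0.01 and 0 with the 3'-minus-5' index, the mitotic genes or the leukocyte markers as covariate, each time with 1 gene at an unadjusted p below 0.05, and 0 to 1 when 1 array was left out. The median difference of -0.10 became -0.16 with the filter at the median signal, -0.15 without probe sets that can bind several transcripts, -0.16 with the smallest-p probe set, -0.15 with the index, and -0.15 to -0.09 when 1 array was left out. MUTYH reversed to 0.38 where probe sets that can bind several transcripts were left out, since a dimmer probe set is then read.

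Same-numbered arrays did not deviate together (correlations 0.00, -0.05 and -0.34) and the labels do not say what a shared number marks, so the numbers were not used to pair arrays. With the replicate block, CHEK1, UNG, TDG, FANCL and GADD45A stayed called and FANCI (adjusted p = 0.0715), PARP1 (0.102) and LIG4 (0.0989) did not. Scaling by quantiles, array medians or cyclic loess gave 7, 7 and 6 lower calls, the last without PARP1 (adjusted p = 0.0547). Fits that left out an array had fewer arrays by construction. By construction too, a stricter threshold can only remove calls, and a looser threshold or the smallest-p probe set can only add them. A covariate that moves with the groups also widens the SE. For BRCA1, for example, the SE was 0.09 in the main fit, 0.14 with the index, 0.13 with the mitotic genes and 0.12 with the leukocyte markers. The cause of the other changes was not tested. Whether dim probe sets such as that of ERCC2 are above background is not known from these values.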
